A study of Mus musculus with 6 samples.

Results

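The genes described here encode the CD3 chains of the T cell receptor complex and proteins of cytotoxic lymphocytes. They are Cd3d, Cd3e, Cd3g, Klrd1, Nkg7, Gzma, Gzmb, Prf1, Il2rb and Ccl5. Every probe set listed with 1 of these 10 symbols was taken, which gave 12 of the 45037 probe sets that are not controls. Prf1 and Il2rb had 2 probe sets and the other 8 genes had 1. They were read in cultured bone marrow cells of mice lacking Cry1 and Cry2 (DKO 1 to DKO 3) and of wild type mice (WT 1 to WT 3), 3 arrays per genotype, all of strain C57BL/6 per the labels. Both genotypes were grown with interleukin-7 at 10 ng/ml and 20% fetal bovine serum, so the culture condition is shared, and age, harvest time and the kind of knockout allele were not found in the sources used here. Nothing in the labels says that the arrays of 1 genotype are different mice or different cultures. The p-values therefore reflect the spread of these 6 samples alone, and that spread may be technical. With 3 arrays per genotype, precision is limited throughout.

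The CD3 delta, epsilon and gamma chains are the invariant signalling subunits that carry the T cell receptor to the surface of T cells. Natural killer cells and cytotoxic T cells kill through granules that hold perforin, which opens the target membrane, and granzymes, the proteases that enter through it. Cryptochromes are repressors of the circadian clock. Interleukin-7 sustains early B and T lymphocyte precursors, and a marrow culture of this kind is commonly used to grow B cell precursors.

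The arrays differed in ways that touch these genes. Signals are the deposited intensities, scaled on each array to a trimmed mean of 500. WT 2 had a median signal of 115, against 44.0 to 55.3 on the other arrays, and a 3' to 5' ratio of the Actb control probe sets of 824, against 1.47 to 2.05. Group values below are therefore log2(signal + 16) with the median of each array set to 0, called the centred log2 level, so that 0 is the level of the median probe set. A difference on this scale is DKO minus WT and understates the change of dim genes. DKO 3 correlated with WT 3 at 0.984 across the 27022 tested probe sets, and with DKO 1 and DKO 2 at 0.936 and 0.952. Cry1 read 359, 399 and 545 in DKO 1 to 3, against 1533, 1502 and 955 in WT 1 to 3, and Cry2 read 162, 178 and 133, against 145, 102 and 105. Whether these probe sets lie in the deleted part was not analysed here, so they do not check the labels. Of the B lineage markers, Vpreb1, a surrogate light chain gene, read 13710 to 21210 in DKO and 14850 to 51360 in WT. Cd79b read 19290 to 22360 in DKO and 4212 to 20320 in WT, and Ebf1 read 2005 to 4359 in DKO and 3361 to 10550 in WT. Pax5, the B lineage transcription factor, was dimmer, at 168 to 213 in DKO and 148 to 340 in WT. Ms4a1 was dimmer still on DKO 1 and DKO 2, at 88.5 and 136.

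Most of the 12 probe sets were dim, and the CD3 chains, Klrd1, Gzmb and Nkg7 had their highest centred levels on DKO 1 and DKO 2. On DKO 3 the CD3 chains, Klrd1 and Gzmb stood at or near the level of the WT arrays. No member passed the test between genotypes with all 6 arrays. Limma adjusted p-values of the 9 tested probe sets lay between 0.822 and 0.866, where 2 of 27022 probe sets passed in all (0.0074%). Gzma and both Il2rb probe sets fell under the filter on low signal and were not tested. On all arrays the members lay between percentile 4.40 and percentile 71.6 of the probe sets of that array. In bulk RNA, fewer cells of a type and less RNA per cell cannot be told apart.

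**Figure D1:**
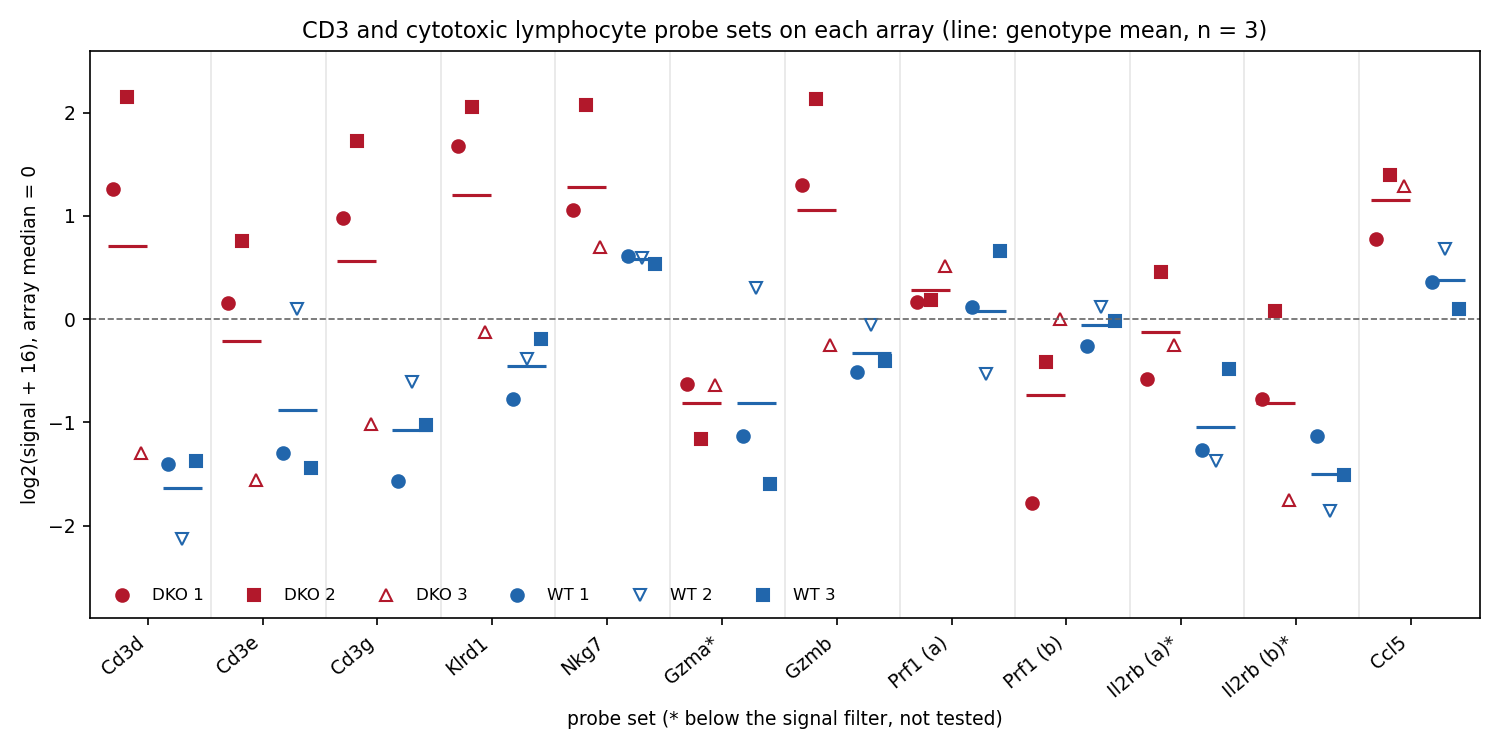
Centred log2 level (log2(signal + 16), array median 0) of the 12 probe sets on each array, red for DKO and blue for WT, with the mean of 3 arrays as a line and DKO 3 and WT 2 as open symbols. Prf1 and Il2rb are shown by the probe set with the higher mean (a) and the other (b), and an asterisk marks probe sets that were not tested. For Cd3d, the filled DKO symbols stand at 1.26 and 2.15, and DKO 3 stands at -1.30, beside WT at -2.13 to -1.38.

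Cd3d, the delta chain, had the largest difference in mean among the 12 probe sets. It read 155, 295 and 8.43 in DKO 1 to 3, against 10.6, 14.0 and 7.90 in WT 1 to 3. DKO 1 and DKO 2 stood far above the rest, at percentiles 65.0 and 71.6 of their arrays, and DKO 3 was at percentile 19.6, against 11.6 to 19.3 in WT. Centred levels averaged 0.71 ± 1.79 in DKO and -1.64 ± 0.43 in WT (SD, n = 3 each). The difference was 2.34 (standard error 0.83, limma adjusted p = 0.822). It was 2.10 without WT 2 and 3.34 without DKO 3, where the limma adjusted p was 0.218. The groups did not overlap, by a margin of 0.08 between DKO 3 and WT 3.

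Cd3g, the gamma chain, read 125, 216 and 13.7 in DKO 1 to 3, against 7.63, 69.8 and 14.5 in WT 1 to 3. DKO 1 and DKO 2 were again highest, and DKO 3 lay inside the WT range. Centred levels averaged 0.56 ± 1.42 in DKO and -1.07 ± 0.48 in WT (SD, n = 3 each), a difference of 1.64 (standard error 0.69, limma adjusted p = 0.822). Without WT 2 it was 1.86, without DKO 3 it was 2.42, and without DKO 2 it was 1.05.

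Cd3e, the epsilon chain, read 63.6, 102 and 4.43 in DKO 1 to 3, against 12.6, 124 and 6.80 in WT 1 to 3. In deposited signal WT 2 was the highest array, and once each array was centred it stood at 0.09, under DKO 1 (0.16) and DKO 2 (0.75). DKO 3 was the lowest of the 6. The difference was 0.67 (standard error 0.68, limma adjusted p = 0.822). Leaving out DKO 2 brought it to 0.18, and leaving out DKO 3 gave 1.34. Averaged over the 3 chains, the centred level was 0.80, 1.55 and -1.29 on DKO 1 to 3, against -1.42, -0.88 and -1.28 on WT 1 to 3. The CD3 signal of DKO 3 was thus within the WT range.

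The 3 CD3 genes lie side by side on chromosome 9 in the order Cd3g, Cd3d, Cd3e. Windows from 250 bases before to 50 bases after the annotated start were read from RefSeq, GRCm38.p6, for the 7 members that matched, which left Klrd1, Il2rb and Ccl5 without one. The 5 windows printed here are those of members whose 2 highest centred levels were on DKO 1 and DKO 2, and they show what the start regions of genes that read high together hold. Capitals mark matches on either strand to any of 4 motifs, no 2 of which overlapped in these windows. The first was the E-box CACGTG, on which the clock factors CLOCK and BMAL1 act. RUNX factors were represented by TGTGGT, a common core of their binding sites. For T-box factors the letters GGTGTGA were searched. For ETS factors they were AGGAAG. Cd3d is at chr9:44981536-44981835 (plus strand), Cd3g at chr9:44980382-44980681 (minus strand), Cd3e at chr9:45009562-45009861 (minus strand), Gzmb at chr14:56262285-56262584 (minus strand) and Nkg7 at chr7:43436888-43437187 (plus strand).
Cd3d: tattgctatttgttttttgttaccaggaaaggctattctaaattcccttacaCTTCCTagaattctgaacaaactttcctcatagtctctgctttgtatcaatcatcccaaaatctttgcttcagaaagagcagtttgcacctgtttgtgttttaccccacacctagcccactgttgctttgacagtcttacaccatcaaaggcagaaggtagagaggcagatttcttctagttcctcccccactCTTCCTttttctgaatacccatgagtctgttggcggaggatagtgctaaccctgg
Cd3g: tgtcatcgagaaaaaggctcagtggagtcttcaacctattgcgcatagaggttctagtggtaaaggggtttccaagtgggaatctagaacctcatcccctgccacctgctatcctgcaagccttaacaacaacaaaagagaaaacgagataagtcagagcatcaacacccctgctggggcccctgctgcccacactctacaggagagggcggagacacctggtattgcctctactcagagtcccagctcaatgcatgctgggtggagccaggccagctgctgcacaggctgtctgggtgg
Cd3e: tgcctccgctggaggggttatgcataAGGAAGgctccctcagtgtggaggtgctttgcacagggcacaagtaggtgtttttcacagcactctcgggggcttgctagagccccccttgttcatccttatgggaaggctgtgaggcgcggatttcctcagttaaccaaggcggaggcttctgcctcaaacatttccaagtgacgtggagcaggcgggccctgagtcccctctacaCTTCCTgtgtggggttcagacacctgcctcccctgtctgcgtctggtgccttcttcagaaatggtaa
Gzmb: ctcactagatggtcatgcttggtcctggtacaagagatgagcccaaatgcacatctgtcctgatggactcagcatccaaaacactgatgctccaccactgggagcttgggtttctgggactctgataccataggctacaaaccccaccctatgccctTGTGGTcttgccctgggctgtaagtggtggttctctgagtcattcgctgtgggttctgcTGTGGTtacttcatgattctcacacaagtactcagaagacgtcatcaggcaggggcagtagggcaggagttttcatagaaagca
Nkg7: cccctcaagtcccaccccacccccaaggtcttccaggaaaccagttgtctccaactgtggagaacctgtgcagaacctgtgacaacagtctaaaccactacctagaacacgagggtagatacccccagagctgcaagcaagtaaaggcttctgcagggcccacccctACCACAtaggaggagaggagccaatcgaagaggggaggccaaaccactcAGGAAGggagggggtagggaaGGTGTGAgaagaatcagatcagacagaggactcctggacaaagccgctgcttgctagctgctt
The E-box CACGTG was in 0 of the 7 member windows and in 7.15% of all 32851 windows of this length. TGTGGT was in 4 of the 7, those of Gzma, Gzmb, Nkg7 and Prf1, and in 16.8% of all windows. In the Gzmb window it began at positions -93 and -34 from the start site. AGGAAG was in 4, those of Cd3d, Cd3e, Nkg7 and Prf1, and in 35.4% of all. GGTGTGA was in 1, that of Nkg7, and in 3.98% of all. The Cd3g window held none of these letters. A match is a description of the sequence, not a bound site.

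Klrd1 encodes CD94, the partner of the NKG2 receptors on natural killer cells. It read 212, 274 and 39.1 in DKO 1 to 3, against 25.0, 84.7 and 38.3 in WT 1 to 3. DKO 1 and DKO 2 were the 2 highest arrays, and DKO 3 differed from WT 3 by 0.07 in centred level. The difference between genotypes was 1.65 (standard error 0.57, limma adjusted p = 0.822), with 1.20 ± 1.16 in DKO and -0.45 ± 0.30 in WT (SD, n = 3 each). It was 1.69 without WT 2 and 2.32 without DKO 3.

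Gzmb, the granzyme that cleaves after aspartate, read 159, 290 and 34.5 in DKO 1 to 3, against 33.2, 110 and 30.9 in WT 1 to 3. DKO 3 stood at a centred level of -0.25, between WT 2 (-0.06) and WT 3 (-0.40), so the groups overlapped. The difference was 1.39 (standard error 0.58, limma adjusted p = 0.822), and it was 1.52 without WT 2, 2.04 without DKO 3 and 0.85 without DKO 2. Gzma, the tryptase-like granzyme, did not share this order. It read 30.2, 15.1 and 22.5 in DKO 1 to 3, against 16.02, 146 and 4.45 in WT 1 to 3, and WT 2 was the highest array. Its mean centred level was -0.81 in both genotypes, and leaving out 1 array moved the difference between -0.40 (without WT 3) and 0.56 (without WT 2).

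Prf1, which encodes perforin, was flat by its brighter probe set and did not share the order of Gzmb. That probe set read 63.97, 63.2 and 69.6 in DKO 1 to 3, against 60.1, 74.8 and 82.4 in WT 1 to 3. The difference was 0.20 (standard error 0.36, limma adjusted p = 0.866), and it turned to -0.10 without WT 2. It was 0.09 without DKO 3 and 0.49 without WT 3. The other Prf1 probe set read 4.78, 36.2 and 44.0 in DKO 1 to 3, against 42.5, 126 and 45.5 in WT 1 to 3. Its difference was -0.68 (standard error 0.47, limma adjusted p = 0.822), and DKO 1 was the lowest array. Without DKO 1 it was -0.16, and without DKO 3 it was -1.04. The 2 probe sets thus had opposite signs with all 6 arrays.

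Nkg7, a membrane protein of cytotoxic granules, read 133, 278 and 81.5 in DKO 1 to 3, against 91.6, 182 and 74.0 in WT 1 to 3. After centring the WT arrays lay close together (0.58 ± 0.04, SD, n = 3), and the DKO arrays lay above them (1.28 ± 0.71, SD, n = 3), with DKO 3 at 0.70 and WT 1 at 0.62. The difference was 0.69 (standard error 0.40, limma adjusted p = 0.822). Leaving out DKO 2 brought it to 0.30.

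Il2rb, the beta chain shared by the interleukin-2 and interleukin-15 receptors, was dim by both probe sets. The one with the higher mean read 31.6, 80.1 and 34.5 in DKO 1 to 3, against 13.1, 34.6 and 28.3 in WT 1 to 3, a difference of 0.92. The other read 25.8, 57.8 and 1.78 in DKO 1 to 3, against 16, 20.2 and 5.84 in WT 1 to 3, a difference of 0.68 that was 0.24 without DKO 2 and 1.15 without DKO 3. DKO 2 was highest on both, and DKO and WT overlapped on both.

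Ccl5, a chemokine that T cells, natural killer cells and macrophages secrete, read high on DKO 3 as well as on DKO 1 and DKO 2. It read 106, 167 and 130 in DKO 1 to 3, against 74.2, 194 and 50.7 in WT 1 to 3. In centred level all 3 DKO arrays stood above all 3 WT arrays (1.15 ± 0.33 against 0.38 ± 0.29, SD, n = 3 each), with a margin of 0.10 between DKO 1 and WT 2. The difference was 0.77 (standard error 0.32, limma adjusted p = 0.822), and it was 0.92 without WT 2 and 0.70 without DKO 3.

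Counted over all 12 probe sets, the mean centred level was higher in DKO for 10, against 61% of all probe sets. It was also higher for 10 without WT 2, against 48.9% of all, and for 10 without DKO 3, against 57.3%. The median difference over the 12 was 0.73, and over all probe sets it was 0.14. The centred level was higher on every DKO array than on every WT array for 4 of the 12, namely Cd3d, Klrd1, Nkg7 and Ccl5, against 6.11% of all probe sets, with margins of 0.07 to 0.10. The reverse held for 0 of the 12 and 3.55% of all. DKO 1 and DKO 2 were the 2 highest arrays for 7 of the 12, against 10.8% of all probe sets, an order that was chosen for counting after the values were seen. In deposited signal, with no centring, this held for 5 of the 12 and 9.58% of all. In a fit with no filter, 5 of the 12 had an unadjusted limma p under 0.05 on the higher side, against 2.19% of all. There the smallest adjusted p of a member was 0.873, and 0 members passed, against 0.00444% of all. The members were picked with earlier results of these arrays known, so these counts are no independent evidence of a direction.

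**Figure D2:**
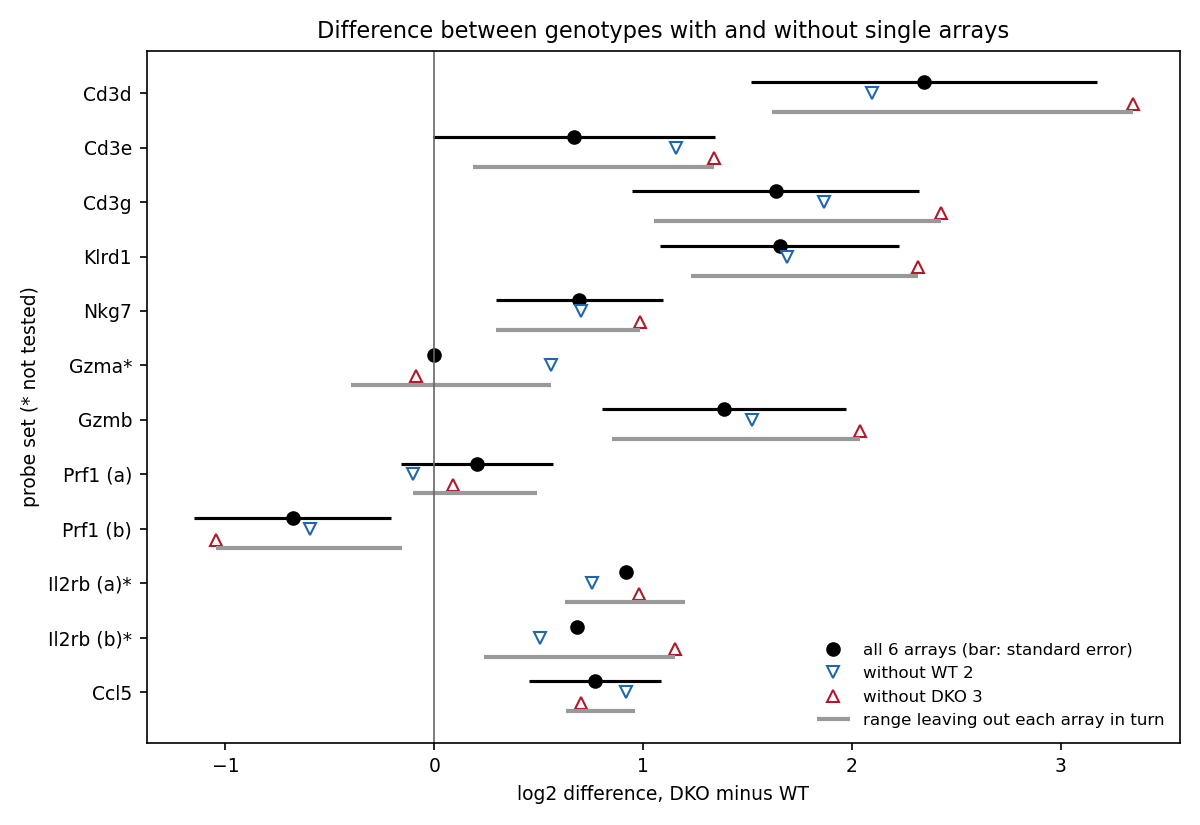
Log2 difference, DKO minus WT, of the 12 probe sets with all 6 arrays (black, with the standard error where tested), without WT 2 (blue), without DKO 3 (red) and over the range from leaving out each array in turn (grey). Cd3d, Cd3g, Klrd1 and Gzmb are largest without DKO 3, at 2.04 to 3.34, and Gzma and the brighter Prf1 probe set (a) have ranges that cross 0.

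Calls on the members depended on how DKO 3 and WT 2 were treated. Leaving out any 1 array gave 0 member genes past the threshold in each of the 6 fits. In some of these fits CD3 chains fell under the filter and were not tested, so they could not pass there. This held for Cd3d and Cd3e without DKO 1, for all 3 chains without DKO 2, and for Cd3e without WT 2. Without WT 2, 0.0222% of tested probe sets passed, and without DKO 3 it was 0. With both WT 2 and DKO 3 left out, 2 arrays against 2, limma called 5 of the 10 genes, Cd3d, Cd3e, Cd3g, Klrd1 and Gzmb, against 4.21% of tested probe sets. The other 4 fits without WT 2 and a further array called 0. Of these, the fit without DKO 1 did not test Cd3e, and the fit without DKO 2 tested no CD3 chain. Limma array weights estimated gene by gene called the same 5 genes, against 3.41% of probe sets, with weights of 0.0623 for WT 2 and 0.535 for DKO 3. Weights by restricted maximum likelihood, whose estimate did not converge, called 7 member genes, against 30.1% of probe sets. DKO 3 stands apart by its expression values and not by a recorded fault, so calls from fits that drop or downweight it are given as descriptions and support nothing here.

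Among the other genes of the T cell receptor complex and its signalling, some were high on DKO 1 and DKO 2 and others were not. Of 28 genes on this list, 22 had a named probe set, 3 of them the CD3 chains. Of the 10 tested genes besides the CD3 chains, 6 were higher and 4 lower in DKO, a share close to that of all probe sets (61%), and 0 were called. Their median difference was 0.46, beside 0.21 over the 27022 tested probe sets, and without WT 2 it was 0.50, beside -0.02. DKO 1 and DKO 2 were the 2 highest arrays for 7 of the 19 genes that are not members (10.8% of all probe sets). With the CD3 chains, the summed signal of the 22 genes was 10930, 8497 and 3520 in DKO 1 to 3, against 3168, 4988 and 3887 in WT 1 to 3. Lat and Thy1, described below, made up most of that sum on DKO 1 and DKO 2, so it says little of the other genes. Genes named in the next lines beyond the naming rule were chosen after their values were seen.

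Lat, the membrane adaptor that T cells share with mast cells and other cells, read 5235, 4020 and 183 in DKO 1 to 3, against 593, 347 and 183 in WT 1 to 3, a difference of 2.51. Thy1, a surface glycoprotein of T cells and some precursors, read 3389, 1617 and 490 in DKO 1 to 3, against 504, 1182 and 276 in WT 1 to 3. For both genes DKO 1 and DKO 2 were the highest arrays, and DKO 3 lay well below them. Cd247, the zeta chain of the same complex, was dim, at 52.0, 51.8 and 33.8 in DKO 1 to 3, against 16.1, 67.8 and 9.06 in WT 1 to 3, a difference of 0.90 that was not tested.

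The coreceptors did not move as 1 group. Cd8b1 was dim and read 36.0, 111 and 2.68 in DKO 1 to 3, against 1.67, 31.0 and 10.0 in WT 1 to 3. Cd8a had a difference of -0.45, and Cd4 read at most 10.1 in DKO and 41.2 in WT. On the lower side the genes named by the rule were Zap70, the kinase that binds the phosphorylated CD3 chains (-0.97), and the costimulatory receptor Cd28 (-0.65), each with a limma adjusted p of 0.822. Cd2 read 46.8, 109 and 1528 in DKO 1 to 3, against 534, 99.3 and 2013 in WT 1 to 3, so it was low on DKO 1 and DKO 2, and also on WT 2, and its difference was -0.82, or -2.22 without WT 2.

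**Figure D3:**
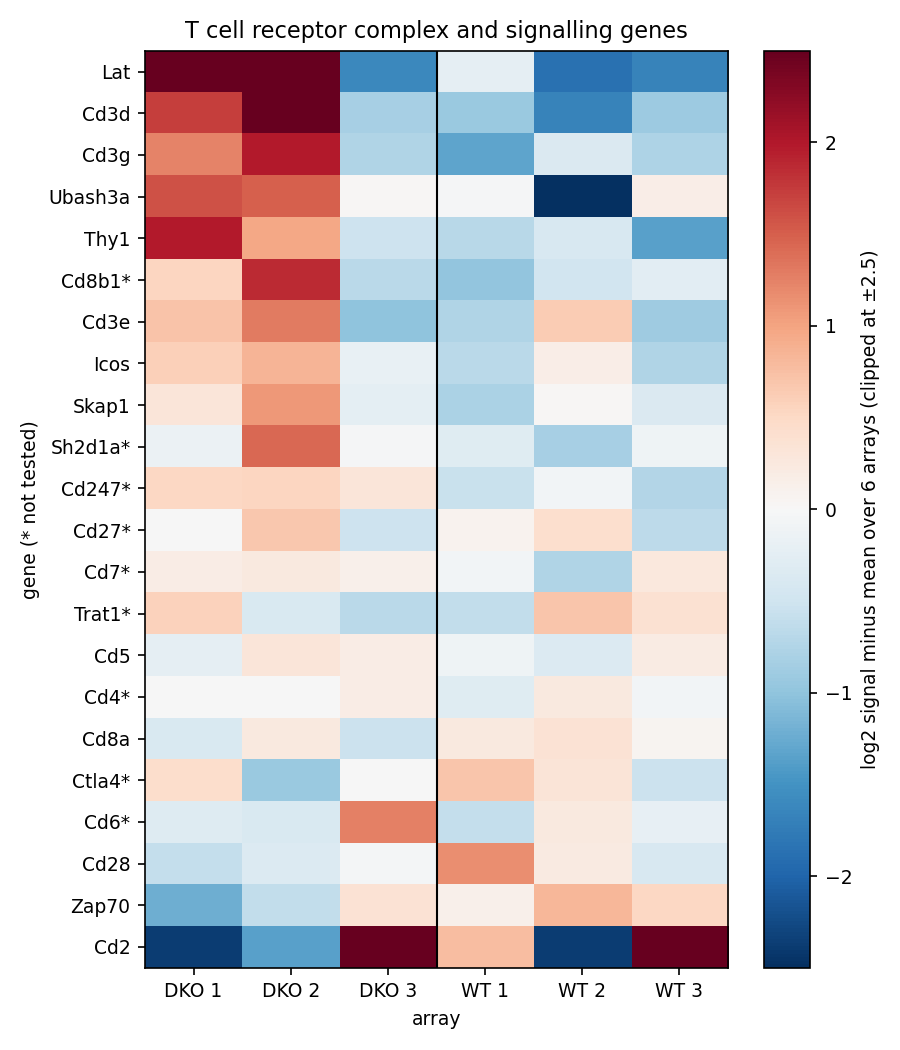
Heat map of the 22 genes of the T cell receptor complex and its signalling with a named probe set, on each array, as log2 level minus the gene's mean over the 6 arrays, with an asterisk on genes that were not tested. Rows run from the highest to the lowest mean of DKO 1 and DKO 2, and the colours are clipped. Lat is at the top, high on DKO 1 and DKO 2, and Cd2 is at the bottom, low on DKO 1, DKO 2 and WT 2.

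Receptors of natural killer cells, Klrd1 included, had mixed differences. Of 22 listed, 18 had a named probe set. Of the 7 tested besides Klrd1, 3 were higher and 4 lower, 0 called, with a median difference of -0.03. Of the 17 measured besides Klrd1, 4 had their 2 highest levels on DKO 1 and DKO 2, against 10.8% of all probe sets, and 3 had every DKO array above every WT array, against 6.11%, with 0 the other way. The summed signal of the 18 was 1426, 1526 and 1589 in DKO 1 to 3, against 1919, 3745 and 1794 in WT 1 to 3, and Slamf7, a receptor that other lymphoid and myeloid cells also carry, made up much of it. Without Slamf7 the sum was 752, 960 and 414 in DKO 1 to 3, against 353, 1359 and 424 in WT 1 to 3. In that sum DKO 1 and DKO 2 stood above WT 1 and WT 3, and DKO 3 did not stand apart from WT 1 and WT 3. The sum was highest on WT 2, whose median signal was also the highest. Klrb1f, a lectin-like receptor gene, read 190, 205 and 81.9 in DKO 1 to 3, against 73.0, 197 and 66.5 in WT 1 to 3, a difference of 0.82. Klrc1, which encodes the NKG2A partner of CD94, read 31.1, 36.2 and 7.61 in DKO 1 to 3, against 7.02, 4.94 and 1.87 in WT 1 to 3, and was too dim to be tested. Ncr1, the NKp46 receptor that marks natural killer cells, had a difference of -0.22, or 0.09 without WT 2. On the lower side the rule named Slamf7 (-0.84) and Klrg1 (-0.58, and -0.33 without WT 2).

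Among the cytotoxic granule and death ligand genes other than members, 4 of 19 had their 2 highest levels on DKO 1 and DKO 2, namely Ctsw, Gzmc, Serpinb6b and Tnfsf10, against 10.8% of all probe sets. Of the 10 tested besides members, 7 were higher and 3 lower, beside 61% of all probe sets higher, 0 called, with a median difference of 0.28. Without WT 2, 5 of the 10 tested were higher and the median was 0.03. Ctsw, a cysteine protease of cytotoxic lymphocytes, read 110, 219 and 58.5 in DKO 1 to 3, against 5.70, 47.1 and 26.2 in WT 1 to 3. Its groups did not overlap, and the difference was 2.06 (standard error 0.47, limma adjusted p = 0.822). Gzmc read 31.0, 51.8 and 2.25 in DKO 1 to 3, against 6.97, 5.35 and 2.54 in WT 1 to 3. Whether its probes also bind Gzmb, its neighbour and relative, was not analysed here. Stx11, a syntaxin needed for granule release, had a difference of -0.96, and Srgn, the proteoglycan core of the granules, had one of -0.01.

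The remaining lists around the members had 0 genes called. Beside their counts of higher means, the share of all probe sets was 61%, or 48.9% without WT 2. The median difference over all tested probe sets was 0.21, or -0.02 without WT 2. Of 7 tested genes of the interleukin-2 and interleukin-15 receptor list, all 7 had a higher mean in DKO, with a median of 0.82. They were the receptor genes Il2ra and Il15ra, the ligand gene Il15, and the signalling genes Jak1, Jak3, Stat5a and Stat5b. Without WT 2, where Il2rb was also tested, 6 of 8 were higher and the median was 0.32. Il15ra (2.19, and 1.12 without WT 2) and Stat5a (1.37, and 0.34 without WT 2) had the smallest p in this list. Of 6 tested chemokine and chemokine receptor genes, 5 were higher, with a median of 0.09, and besides Ccl5 the rule named Cxcr6 (0.42) and Ccr1 (-0.22, and -0.74 without WT 2). Of the 10 measured, 2 had every DKO array above every WT array, against 6.11% of all probe sets. The reverse held for 1, Cx3cr1, against 3.55% of all. Cx3cr1 read 14.5, 11.8 and 10.9 in DKO 1 to 3, against 61.9, 106 and 17.4 in WT 1 to 3 (-0.95, not tested). Of 9 tested transcription factors of T and natural killer cells, 7 were higher, with a median of 0.20. WT 2 alone was low for Lef1 (1.70, and 0.72 without WT 2) and Ets1 (1.17, and 0.28 without WT 2), which led on the higher side. Lef1 was also highest on DKO 1 and DKO 2, at 9070, 8194 and 2692 in DKO 1 to 3, against 3735, 896.5 and 3306 in WT 1 to 3. That order held for 5 of 12 measured transcription factors and for 3 of 8 genes of the interleukin list (Il2ra, Il15 and Il15ra). It held for 1 of 10 chemokine genes and 0 of 5 innate lymphoid cell markers, and for 10.8% of all probe sets. On the lower side were Tox (-0.60, and -1.07 without WT 2) and Nfil3 (-0.27, and -0.73 without WT 2). Eomes, which drives cytotoxic programmes, was dim, at 46.6, 102 and 14.3 in DKO 1 to 3, against 18.2, 11.8 and 31.8 in WT 1 to 3, a difference of 1.08, or 0.57 without WT 2. Of 10 innate lymphoid cell markers, 5 had a named probe set and only Il17rb (0.13, and 0.22 without WT 2) and Zbtb16 (0.01, and 0.14 without WT 2) were tested.

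Markers of other cell types moved with the same arrays. Mast cell and basophil markers (mouse mast cells can hold granzyme B) had a summed signal of 2499, 2277 and 362 in DKO 1 to 3, against 1427, 1185 and 403 in WT 1 to 3. Kit was a large part of that sum, at 892 and 989 on DKO 1 and DKO 2 and 906 on WT 1. Of the 10 with a named probe set, 6 had their 2 highest levels on DKO 1 and DKO 2, against 10.8% of all probe sets. Kit, Hdc, Mcpt4 and Tpsb2 did not. Hdc differed by 0.05, and Tpsb2, which was not tested, by -0.63. All 6 tested had a higher mean in DKO (median 1.04, 0 called), against 61% of all probe sets. Fcer1a, the alpha chain of the IgE receptor, is not named by the rule. It read 177, 118 and 0.638 in DKO 1 to 3, against 18.6, 56.1 and 20.5 in WT 1 to 3. Mcpt8, a basophil protease, and Gata2 differed by 1.51 and 1.03.

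Granulocyte markers ran the other way, with a summed signal of 582, 570 and 27520 in DKO 1 to 3, against 75360, 178600 and 19060 in WT 1 to 3, all 10 tested lower in DKO, and S100a8 and S100a9 at -4.84 and -4.97. Macrophage and monocyte markers summed to 28250, 20070 and 35400 in DKO 1 to 3, against 58520, 112400 and 25070 in WT 1 to 3, with 9 of 11 lower. Tyrobp (-1.97) and Csf1r (-2.04) had the smallest p, and Ly86 (0.05) and Lyz2 (0.04) were on the higher side. Without WT 2 both turned, to -0.17 and -0.28, and 0 of 11 were higher, as was the case without DKO 3. Of 11 B lineage markers 7 were higher, beside 61% of all probe sets, with summed signals of 83830 to 121900 in DKO and 81150 to 142300 in WT. Dntt, which early B and T precursors both use, read 10160, 10080 and 1079 in DKO 1 to 3, against 1314, 3466 and 495 in WT 1 to 3, highest on DKO 1 and DKO 2 and low on DKO 3. Blnk (1.18, and 0.66 without WT 2), Ebf1 (-0.49) and Ms4a1 (-1.69) were the other B lineage genes named by the rule.

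Of 7 tested plasmacytoid dendritic cell markers 4 were higher in DKO, beside 61% of all probe sets. Their summed signal was 20150 to 36540 in DKO and 11310 to 21630 in WT. Irf8 (1.51) and Ly6d (1.33) were on the higher side, at 0.75 and 0.48 without WT 2. Pacsin1 (-0.85) and Klk1 (-0.57) were on the lower side, at -0.53 and -0.28 without WT 2. Of 8 platelet and megakaryocyte markers 5 were lower, with sums of 705 to 4649 in DKO and 2674 to 6082 in WT, and a median of -0.28 that was -0.07 without WT 2. Ppbp stood at -2.03, Tubb1 at -0.80, Gp9 at 0.38 and Gp1bb at 0.28, and without WT 2 at -2.34, -0.53, 0.14 and 0.71. No gene of these 6 lists passed the threshold, and none of their markers was listed at 0. The part of any of these cell types in the signals of the members was not tested.

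**Figure D4:**
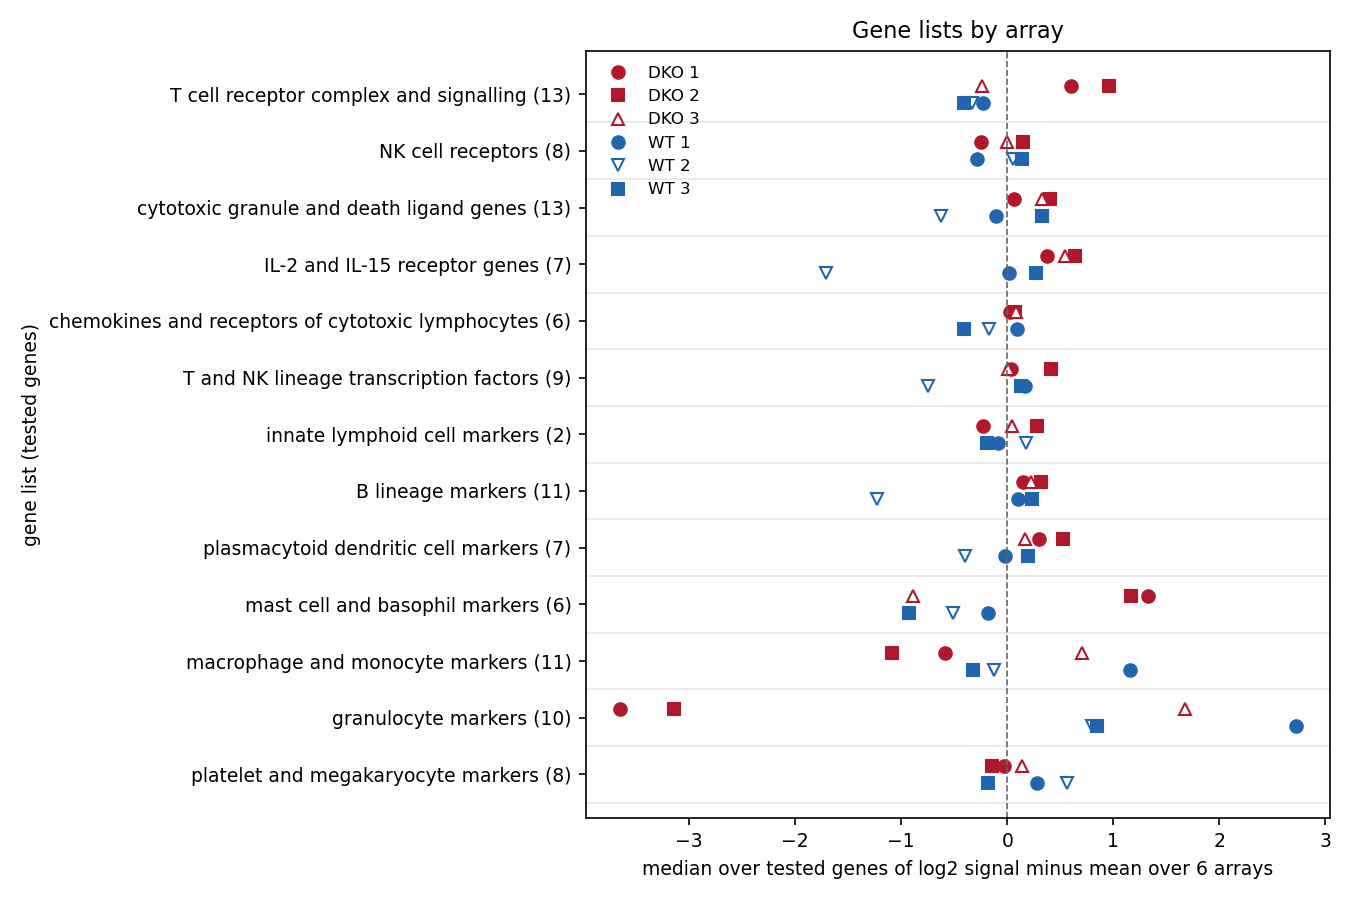
Median over the tested genes of each of 13 lists, per array, of the log2 level minus the gene's mean over the 6 arrays, with the number of tested genes in brackets, DKO arrays above WT arrays in each row. In the T cell receptor row, which includes the 3 CD3 chains, DKO 1 and DKO 2 stand at 0.60 and 0.96 and the other arrays at -0.41 to -0.23, and in the granulocyte row DKO 1 and DKO 2 stand at -3.65 and -3.15.

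The genes most like the members by pattern were named by the root mean square difference of their log2 deviations over the 6 arrays, among 12619 tested genes. Nearest to the mean of the CD3 chains were Cox6a2 (0.20), a muscle-type cytochrome oxidase subunit, Gnb4 (0.25), a G protein beta subunit, Gm11772 (0.29), Ift43 (0.31), Lhfp (0.33) and Ttpa (0.34), in log2 units. Cox6a2 read 649, 1390 and 156 in DKO 1 to 3, against 138, 384 and 105 in WT 1 to 3. Cd3g itself lay 0.15 from that mean, Cd3e 0.58 and Cd3d 0.60. The genes named were picked as the closest of 12619 over 6 arrays. Their smaller distances are therefore no result about the CD3 chains. Nearest to the mean of the other 7 members were Grasp (0.11), LOC664787 (0.12), Klrb1f (0.15), Tspyl2 (0.17), Ndrg2 (0.17) and Slc43a1 (0.17). Within these 7, distances to their own mean ran from 0.21 for Nkg7 to 0.78 for Gzma.

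Genes beside the members on the chromosome were read from the RefSeq gene table (GRCm38.p6), with 5 protein-coding genes taken on either side. Of 71 such neighbours with a named probe set, 13 (18.3%) had their 2 highest levels on DKO 1 and DKO 2, where 10.8% of all probe sets did, 0 of the 39 tested were called, and the median difference was 0.16, or -0.01 without WT 2. Beside the CD3 genes on chromosome 9, Ube4a (-0.18) and Atp5l (0.17) differed little, Mpzl2 had 0.38 (0.63 without WT 2) and Scn2b 1.05 (0.76 without WT 2). Kmt2a (0.67) and Mpzl3 (0.89) were low on WT 2 alone and turned to -0.33 and -0.09 without it. With or without WT 2, each of these 6 had a smaller difference than Cd3d or Cd3g. Cd3e, at 0.67, lay below Scn2b and Mpzl3 with all arrays, and at 1.16 it lay above all 6 without WT 2. Mpzl2, Scn2b and the nearby Scn4b also had their 2 highest levels on DKO 1 and DKO 2, whereas Ube4a, Atp5l, Kmt2a and Mpzl3 did not. Directly beside Gzmb on chromosome 14 were Gzmc (1.20, and 0.89 without WT 2) and Atp12a (-0.27, and -0.07 without WT 2). Further out were Parp4 (1.36, and 0.48 without WT 2) and Rnf17 (-0.69, and -0.64 without WT 2). Directly beside Klrd1 on chromosome 6 were Klre1 (0.36, and 0.29 without WT 2) and Klrk1 (0.56, and 0.12 without WT 2). Further out were Klrc1 (1.23, and 0.92 without WT 2) and Gabarapl1 (0.79, and 0.30 without WT 2). The naming rule did not cover these neighbours.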

How the data were processed

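Total RNA had been biotin-labelled and hybridised to 6 arrays. Each deposited value is the linear intensity of 1 probe set. The submitters' processing notes name MAS5, with no version. Detection calls were not used here. Of 45101 probe sets, 64 controls were left out. Of the other 45037, 34945 had 1 gene symbol, 932 several and 9160 none, and 34741 of the first matched the GRCm38.p6 gene table by gene ID.

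Values were taken as log2(intensity + 16) and centred on each array's median. Probe sets whose mean exceeded percentile 40 (27022) were fitted with limma 3.58.1 (R 4.3.3), genotype as the only term, with trended moderated variances, two-sided, Benjamini-Hochberg adjusted over all of them at 0.05. A gene was represented by its probe set with the highest mean. The fit was tested on simulated data. Tables and figures used Python 3.11.15, pandas 2.3.3 and matplotlib 3.10.9.

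The members and the 13 lists were chosen with earlier results of these data known. The naming rule took all members, and in each list the called genes (up to 4) or else the 2 tested genes with the smallest p in each direction, plus the 6 nearest by pattern. Gene-by-gene array weights were added after seeing the data. Alternatives are in the closing section.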

Additional observations from a re-analysis of the deposited data

How the results depend on the processing

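Over 24 alternatives for each gene, Cd3d, Cd3e, Cd3g, Klrd1, Nkg7, Gzmb, Il2rb and Ccl5 kept a higher mean in DKO in all 24, Prf1 was higher in 15 and Gzma in 10. Changes of filter, of variance settings and the replicate block cannot alter a difference. Nor can averaging the probe sets of a gene that has only 1. The rest are overlapping refits of the same 6 arrays, so the 24 are not separate checks of direction. Prf1 changed sign when arrays were centred over the tested probe sets (-0.0897), without centring (-0.11), with gene-by-gene weights (-0.0545), and in fits without WT 2 alone (-0.10) or with DKO 1 (-0.04), DKO 2 (-0.05), DKO 3 (-0.22) or WT 1 (-0.38) left out as well. The mean of its 2 probe sets gave -0.24. The cause was not tested. Leaving out 1 array moved Cd3d between 1.62 and 3.34, Cd3g between 1.05 and 2.42, Klrd1 between 1.23 and 2.32, Gzmb between 0.85 and 2.04 and Prf1 between -0.10 and 0.494. Array weights by restricted maximum likelihood, whose estimate did not converge and gave WT 1 a weight of 30.8 and WT 2 one of 0.0526, called 7 member genes and 8129 probe sets. Gene-by-gene weights, added after seeing the data, called 5 member genes and 922 probe sets. The settings of the report called 2 probe sets, and 0 were called with quantile normalization, centring over tested probe sets, no centring, pseudocount 1 or the replicate number as a block, and 1 with a filter at percentile 60 or robust variances. Fits that left out arrays called 0 to 1137 probe sets and 0 to 5 member genes, both maxima in the fit without WT 2 and DKO 3, and the fit without WT 2 alone called 6 probe sets and 0 member genes. The replicate block left the difference of Cd3d at 2.34 with a limma adjusted p of 0.804. The labels give no pairing, so the numbers were not taken to pair the samples. Same-numbered arrays deviated together with correlations of -0.151, -0.00189 and 0.334, and unlike-numbered arrays with -0.393 to 0.317. The highest, 0.334, was that of DKO 3 with WT 3, and whether those 2 arrays share a factor was not tested. The adjusted p of Cd3d ranged from 0.000886 to 1 over the alternatives that tested it. Dim signal limits the members, most of which lie near the median of their array, and detection calls were not used here.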
